A study of Homo sapiens with 11 samples.

Results

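Alternative 5′ splice site events are places where a single acceptor (the 3′ end of an intron) can be joined to more than 1 donor (its 5′ end), so that the upstream exon is made longer or shorter. The events described here were the unique entries of the alternative 5′ splice site table of HCC78 cells with at least 10 reads on each side of a comparison of S34F mutant with wild-type (WT) U2AF1. They numbered 11391 of the 12658 unique events in that table, and of 79960 events of 5 types that met the same minimum. They lay in 6501 host genes. Exactly 2 junctions were listed for 10428 events, and 963 had a list of isoforms (3 junctions in 775, 4 in 141 and 5 to 7 in 47). At the limit of the read minimum, 84 events had exactly 10 reads on the side with fewer, of which 48 differed by at least 0.10 between the sides, and 93 events just outside it had 9, of which 43 did.

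HCC78 is an established lung adenocarcinoma line that carries an SLC34A2-ROS1 fusion and has the S34F allele of U2AF1 of its own. The line had been transduced with a lentiviral, doxycycline-inducible cDNA of either WT or S34F U2AF1 with a FLAG-6xHA tag at the N-terminus, and stable subclones were made, so differences between subclones and between transgenes cannot be told apart. RNA-Seq covered 9 libraries. With doxycycline there were 2 of the WT line (WT dox+), in which S34F was 12% and 14% of U2AF1 mRNA per the labels, and 2 of the S34F line (S34F dox+), in which it was 62% and 65%. Without it there were 2 of the WT line (WT dox-, 33% in both), 1 of the S34F line (S34F dox-, 28%) and 2 of the untransduced parental line (32% in both, labelled dox-). Every group therefore carried both alleles, and the WT dox+ cells were no S34F-free control. The splicing tables hold 1 value per side, with no source used here saying how the 2 libraries of a group were combined. All PSI differences below thus have no replicate and no test, and nothing in the labels says that the expression replicates were separate cultures, so p-values measure only the spread between these libraries.

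The donor is first recognised by base pairing with U1 snRNA in the U1 snRNP, and is then handed over to U6 and U5 before catalysis. U2AF1, the small subunit of U2AF, binds the AG at the other end of the intron, and S34F lies in its first zinc finger. In an alternative 5′ splice site event the acceptor is the same for both isoforms, so the choice is made between donors that compete for the same AG. Donors 4 bases apart are a common class, since the usual donor motif begins with GT and often holds a second GT at that spacing. The bases of the sites were not analysed here because this needs a genome sequence of the build of the files (GRCh37/hg19, per the submitters' processing notes), and positions below are those of the event names in that build.

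PSI ("percent spliced in", given by MISO as a fraction from 0 to 1) needs a direction before it can be read. In all 10428 events with 2 junctions the donor nearer the acceptor was listed first. Where only the farther, upstream donor was also used by an event of the other 4 tables, median PSI on the wild-type side was 0.95, and it was over 0.5 in 1152 of 1220 events with at least 300 reads on each side. Where only the nearer donor was used elsewhere, the median was 0.06, and PSI was under 0.5 in 410 of 483 events. PSI is therefore given here as the share of the upstream donor, which makes the shorter exon, and a higher PSI in S34F means more use of that donor. The reading was deduced from these counts and need not hold for every event. It went against the annotation in LMNA, where PSI of the pair 150 bases apart (chr1:156108398-156108548) was 0.82 in S34F and 0.84 in WT, although the upstream donor of this pair is the cryptic site known from progeria.

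The median distance between the donors was 11 bases (quartiles 4 and 63, range 1 to 5567). Donors 4 bases apart made up 3597 events (34.5%), against 289 events (2.77%) at 2 bases, 275 (2.64%) at 5 and 182 (1.75%) at 3. Their median PSI on the wild-type side was 0.93, the highest among distances of 1 to 30 bases. The upstream donor thus had nearly all of the use in most such pairs. Median PSI was 0.25 at 3 bases, 0.59 at 5 and 0.55 over all distances other than 4.

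**Figure D1:**
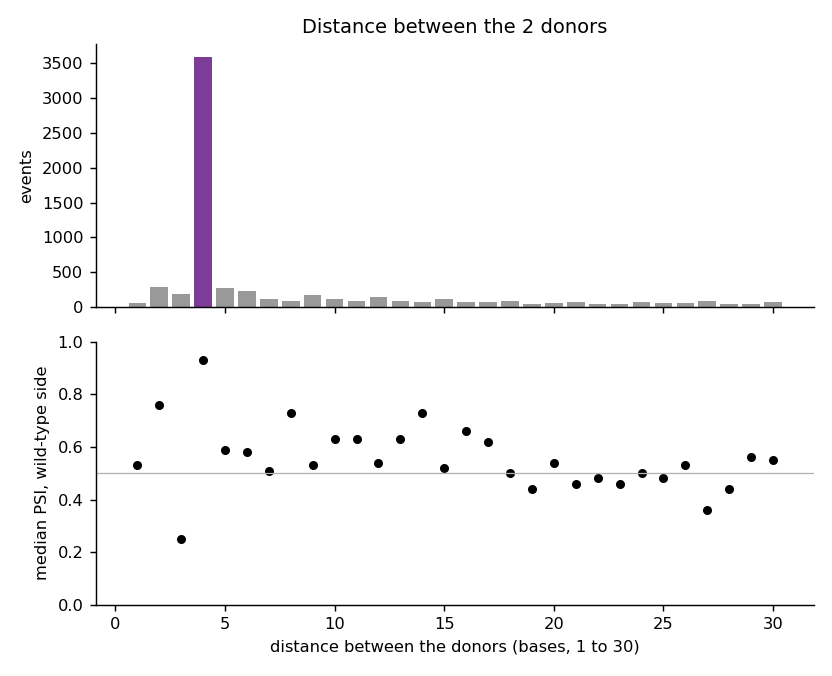
Distance between the 2 donors of an event in bases (x axis, 1 to 30) against the number of events (upper panel) and the median PSI on the wild-type side (lower panel, no unit, share of the upstream donor). The bar at 4 bases holds 3597 of 10428 events, and its median PSI of 0.93 is the highest of the 30 distances shown.

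Across all 11391 events, PSI was higher in S34F by at least 0.10 in 1434 (12.6%) and lower in 1693 (14.9%). The 963 events with a list entered with the isoform that differed most, so their sign does not name a donor. Of the 10428 events with 2 junctions, 1294 (12.4%) were higher and 1505 (14.4%) lower. Over all 5 event types with the same minimum, 16.2% were higher and 15.2% were lower. The share past 0.10 in either direction was 27.5% (Wilson 95% interval 26.6 to 28.3) for alternative 5′ sites, 30.9% (30 to 31.8) for alternative 3′ sites, 30.3% (29.9 to 30.8) for skipped exons, 30.5% (29.3 to 31.8) for retained introns and 38.4% (37.6 to 39.2) for NAGNAG events, in which 2 acceptors lie 3 bases apart. Intervals here cover counting error only, and take events as independent although events of a gene share reads. With at least 100 reads on each side, 819 of 8752 alternative 5′ site events (9.36%) were higher and 993 (11.3%) were lower, beside 12.4% and 11.8% over the 5 types. At that minimum the share past 0.10 was 20.7% for alternative 5′ sites, 21.8% for retained introns, 23% for skipped exons, 23.9% for alternative 3′ sites and 32.8% for NAGNAG. Alternative 5′ sites thus had the lowest share of the 5 types at both minimums, and the intervals of this type and of retained introns overlapped at 100 reads (19.9 to 21.6 and 20.5 to 23.2).

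**Figure D2:**
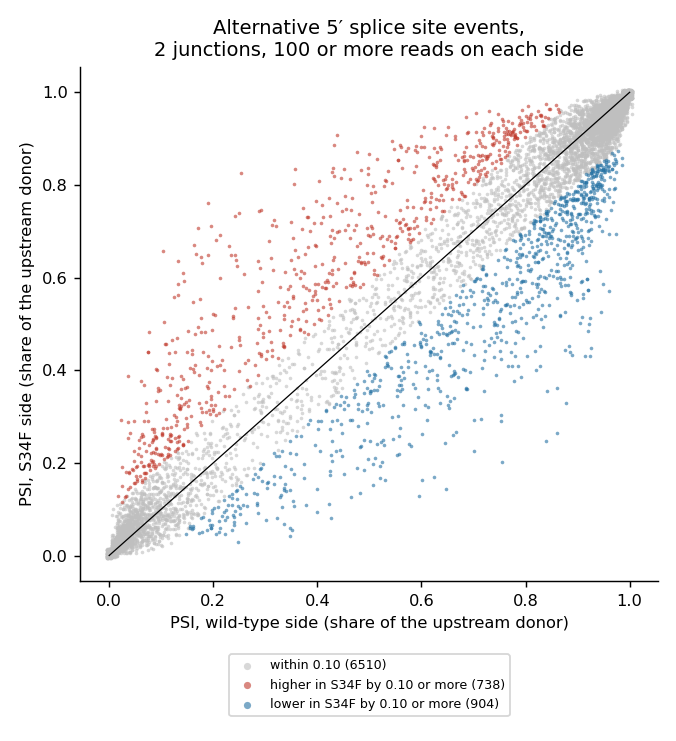
PSI (no unit, share of the upstream donor) on the wild-type side (x axis) against the S34F side (y axis) for 8152 events with 2 junctions and at least 100 reads on each side, each a point moved by up to 0.005 at random so that equal values can be seen. Of these events, 738 lie at least 0.10 above the diagonal and 904 at least 0.10 below it.

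Events with more reads passed 0.10 less often. Of events with 10 to 99 reads on the side with fewer, 50.8% (48.8 to 52.9) were past it, against 26.2% (25.1 to 27.4) with 100 to under 1000 reads and 7.49% (6.54 to 8.55) with 1000 or more. Median PSI on the wild-type side was 0.53, 0.79 and 0.95 in these classes in turn, so reads and PSI level varied together. The read numbers are largely those of a gene rather than of a junction, since in 1836 of 2538 host genes with several events (72.3%) the highest was at most 1.1 times the lowest. They overstate the reads that tell the donors apart. Even if every one of them did, a Newcombe 95% interval of the difference would hold 0 for 754 of the 3127 events past 0.10 (24.1%), of which 728 had under 100 reads on a side.

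The share varied less with distance than with reads. The share past 0.10 was 21.9% (20.7 to 23.1) at 1 to 6 bases, 33% (30.8 to 35.4) at 7 to 24, 31.4% (29.6 to 33.3) at 25 to 99, 29.4% (27.2 to 31.7) at 100 to under 500 and 20.5% (15.9 to 26.1) at 500 or more. Among events with 1000 or more reads it was 4.95% (3.86 to 6.32) at 4 bases, 14.9% (11.6 to 19) at 7 to 24, 8.9% (6.65 to 11.8) at 25 to 99 and 7.27% (4.76 to 11) at 100 to under 500. Pairs 7 to 24 bases apart therefore passed more often than pairs at 4 bases at a like class of reads, with intervals that did not overlap. They also had less extreme PSI, with a median of 0.8 against 0.98 on the wild-type side.

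Where the distance is divisible by 3, both donors keep the reading frame if they lie in coding sequence. The share past 0.10 was 31.1% (29.4 to 32.9) for such pairs and 25.3% (24.3 to 26.3) for the others. Without the pairs 4 bases apart, the share of the frame-changing pairs was 29.8% (28.4 to 31.2). With 1000 or more reads the shares were 11.6% (9.34 to 14.2) for frame-keeping pairs and 8% (6.29 to 10.1) for frame-changing pairs other than at 4 bases. Their median PSI on the wild-type side also differed, at 0.52 and 0.82 in turn. The part of PSI level in these shares was not tested.

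The level of PSI limits how far it can differ. Of events with wild-type PSI between 0.10 and 0.90, 46.8% (45.5 to 48.2) were past 0.10, against 7.51% (6.3 to 8.93) at 0.10 or under and 6.78% (6.01 to 7.64) at 0.90 or over, and the outer classes could pass in 1 direction only. By the mean of both sides, 57.7% (55.9 to 59.6) of events over 0.30 and up to 0.70 were past 0.10. Within this middle class 762 events were higher in S34F and 845 were lower. Its events also had fewer reads, with medians of 76 in S34F and 105 in WT. At a mean PSI of 0.90 or over the medians were 895 and 1331. The parts of reads and of PSI level in these shares were not tested.

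More events were lower than higher in S34F, and the balance differed by distance and by level of PSI. At 4 bases 449 events (12.5%, 11.4 to 13.6) were lower and 279 (7.76%, 6.93 to 8.68) were higher, which is a shift from the upstream to the downstream donor in more pairs than the reverse. At all other distances 1056 were lower and 1015 higher, but these totals held opposite balances that offset each other. With a mean PSI over 0.70 and under 0.90, 270 pairs at other distances were lower and 156 higher, and over 0.10 to 0.30, 135 were lower and 243 higher. At 4 bases the same classes had 227 lower and 102 higher, and 14 lower and 19 higher. An excess of lower PSI in the upper class was thus found at both spacings, and pairs at 4 bases lay mostly at high PSI (median 0.93 on the wild-type side). With 100 to under 1000 reads, 282 pairs at 4 bases were lower and 149 higher, and with 1000 or more the numbers were 32 and 28. Read numbers moved with these balances. The S34F side had fewer reads in 9871 of the 10428 events (median ratio 0.684), and PSI was nearer to 0.5 in S34F in 5494 events and nearer in WT in 3409. In the 132 pairs at 4 bases with no fewer reads in S34F, 30 were lower and 36 higher, and PSI was nearer to 0.5 in S34F in 53 and in WT in 72. Among all 557 events with no fewer reads in S34F, 134 were lower and 132 higher. The pairs at 4 bases with no fewer reads in S34F also had fewer reads in all (medians of 39.5 in S34F and 31 in WT, against 586 and 859 in the other pairs at 4 bases) and a wild-type median PSI of 0.58 against 0.94. The part of read balance, depth and PSI level in the excess was not tested.

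**Figure D3:**
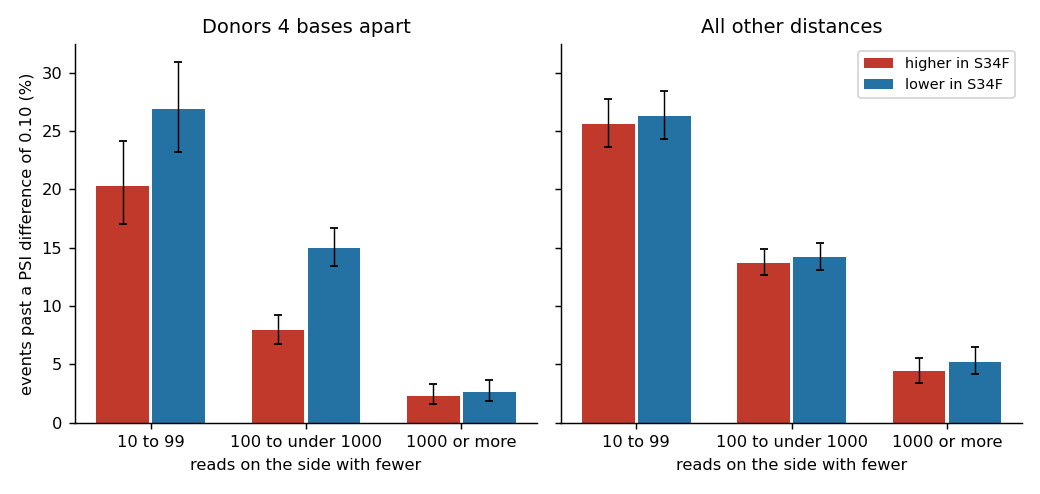
Percent of events past a PSI difference of 0.10, higher (red) or lower (blue) in S34F, by the reads on the side with fewer (x axis), for donors 4 bases apart (left) and for all other distances (right). Bars are shares of events and lines are Wilson 95% intervals. The share falls with reads in both panels, and the gap between lower and higher is widest at 4 bases with 100 to under 1000 reads (15% against 7.92%).

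The same 2 donors were listed with 2 different acceptors in 217 cases, of which 132 had at least 100 reads on each side in both events. Events past 0.10 numbered 94 in these, and a case with both events past it was counted 2 times. For these 94 the other event differed in the same direction in 61, in the opposite direction in 31 and not at all in 2. Both were past 0.10 in 27 cases, 17 of them in the same direction and 10 in opposite directions. The SD of the gap between the 2 PSI differences was 0.19. A difference of 0.10 in 1 event was therefore often not found again with the same donors, although the acceptors and the reads differed between the events.

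The 12 largest differences with higher PSI in S34F, among events with 2 junctions, at least 100 reads on each side and 1 event per host gene, ran from 0.47 to 0.58. On the wild-type side the upstream donor was the minor one in all 12 (PSI 0.1 to 0.44), and in S34F it was the major one (0.63 to 0.91). Picking events by a difference of this size largely fixes such a switch, since PSI lies between 0 and 1. The largest was in ZNF616, a zinc finger gene (chr19:52625613-52625661, minus strand, donors 48 bases apart), with PSI 0.83 in S34F (237 reads) and 0.25 in WT (310 reads). TTLL4, a tubulin polyglutamylase (chr2:219617570-219617696, plus strand), had 0.76 with 366 reads and 0.19 with 522, at 126 bases. DEDD, a death effector domain protein (chr1:161094130-161094204, minus strand), had 0.66 with 438 reads and 0.1 with 641. NIT1 overlaps DEDD at this place. SETDB2, a histone methyltransferase (chr13:50026045-50026049, plus strand), was the only one of the 12 with donors 4 bases apart, with 0.71 and 0.17 on 115 and 193 reads.

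In KLHL24, a substrate adaptor of a ubiquitin ligase (chr3:183353535-183353581, plus strand), PSI was 0.67 in S34F and 0.16 in WT with 526 and 611 reads. STX16, a syntaxin of the Golgi (chr20:57227143-57227194, plus strand), had 0.69 and 0.21 with 509 and 850 reads. For PAN2, the catalytic subunit of a poly(A) nuclease (chr12:56717821-56717833, minus strand, 12 bases), the values were 0.91 and 0.44 with 176 and 239 reads. Also in this group were TRPS1, a GATA-type repressor (0.63 and 0.13), FTSJ2, a mitochondrial rRNA methyltransferase (0.74 and 0.25), and BTN2A2, a butyrophilin (0.73 and 0.24). DDX12P, a pseudogene of a helicase (0.71 and 0.2), has close copies elsewhere in the genome, so its reads are uncertain.

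The 12 largest differences with lower PSI ran from -0.6 to -0.47. Here the upstream donor was the major one on the wild-type side in all 12 (0.6 to 0.92) and the minor one in S34F (0.13 to 0.45). The choice by size of difference largely fixes this too. PFDN6, a prefoldin subunit that helps fold actin and tubulin (chr6:33257397-33257405, plus strand, 8 bases), had the largest difference and the fewest reads, with PSI 0.26 in S34F (111 reads) and 0.86 in WT (128 reads). BCL7A, a subunit of SWI/SNF remodelling complexes (chr12:122492832-122492895, plus strand, 63 bases), had 0.25 and 0.84 with 125 and 172 reads. PTCD3, a protein of the small mitochondrial ribosomal subunit (chr2:86360357-86360379, plus strand, 22 bases), had 0.2 and 0.75 with 721 and 1083 reads. In SEPT10, a septin (chr2:110350624-110350628, minus strand, 4 bases), PSI was 0.33 and 0.88 with 862 and 1262 reads when the acceptor was at 110325553. With the nearer acceptor at 110343415, the same 2 donors of SEPT10 had PSI 0.97 and 0.98 with 1304 and 1888 reads, so the difference was seen with 1 of the 2 acceptors.

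ESPL1 encodes separase, the protease that releases sister chromatids. Its named event (chr12:53668794-53668798, plus strand, 4 bases) had PSI 0.45 in S34F and 0.92 in WT with 631 and 943 reads. A second pair in ESPL1, 81 bases apart (chr12:53662631-53662712), had 0.44 and 0.89. The other pairs of the gene had 0.56 and 0.64 and, in the other direction, 0.25 and 0.15, so its events did not all differ alike. RRP7A, which acts in ribosomal RNA processing, had 0.36 and 0.86 at 18 bases. CDK5RAP3, a component of the UFM1 ligase complex, had 0.43 and 0.91 at 19 bases, and ZDHHC4, a palmitoyltransferase, 0.36 and 0.84 at 26. APOBEC3F, a cytidine deaminase with close paralogs (0.14 and 0.65, 210 bases), ZFP1, a zinc finger gene (0.43 and 0.92), TTC31 (0.23 and 0.7) and the pseudogene FER1L4 (0.13 and 0.6) completed the group.

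**Figure D4:**
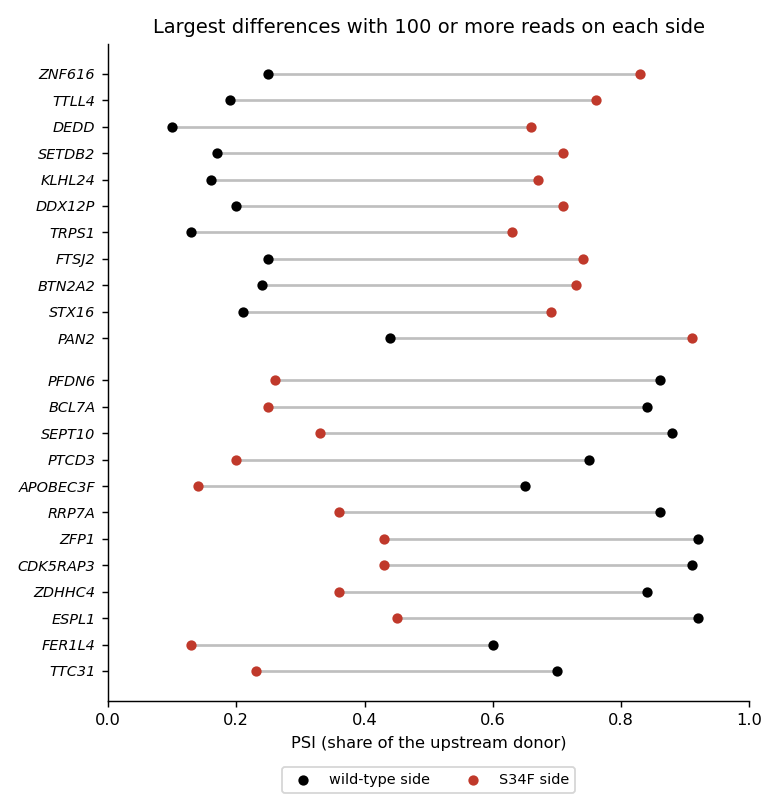
PSI (x axis, no unit, share of the upstream donor) on the wild-type side (black) and the S34F side (red) for 23 of the 24 events with the largest differences among those with at least 100 reads on each side, 11 higher in S34F (upper block) and 12 lower (lower block), 1 value per side and no error. The upstream donor is the minor one in WT in the upper block and the major one in WT in the lower block, which the choice by size of difference largely fixes.

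None of these 24 events had 1000 or more reads on each side, and 3 had donors 4 bases apart. Where reads were most numerous the differences were smaller, and the events given next were picked after their values were seen. With at least 1000 reads on each side the largest increases were in FBL, the rRNA methyltransferase fibrillarin (0.59 in S34F and 0.13 in WT, 1081 and 1703 reads, 3 bases apart), LANCL1 (0.59 and 0.14, 27 bases), RCC1, the exchange factor of Ran (0.71 and 0.31, 14 bases), and TFDP1, the partner of E2F factors (0.7 and 0.39, 12 bases). The largest decreases were in RFWD3, a ubiquitin ligase of the DNA damage response (0.29 and 0.75, 1085 and 1751 reads, 66 bases), and UHMK1 (0.57 and 0.92, 3876 and 5351 reads, 4 bases). UHMK1 is a kinase with a U2AF homology motif that phosphorylates the branch point protein SF1. NCOA3, a nuclear receptor coactivator (0.36 and 0.69, 12 bases), ZNF638 (0.36 and 0.68, 10 bases) and PTBP3, a polypyrimidine tract binding protein (0.4 and 0.69, 9 bases), came close behind.

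Genes of RNA processing had few differences. Of 116 events in 56 measured genes of a list of 75, 4 were higher and 7 lower in S34F (9.48%), beside 20.1% of all 8152 events with 2 junctions and at least 100 reads, and the median absolute difference was 0.01 beside 0.03. The largest was in TARDBP, which encodes TDP-43 (chr1:11082298-11082307, plus strand, 9 bases), with PSI 0.24 in S34F and 0.51 in WT on 693 and 1049 reads. RBM6, an RNA binding protein, followed in the opposite direction with 0.74 and 0.48 at 88 bases. Others past 0.10 were lower in HNRNPH3 (0.14 and 0.35), in both pairs of THOC1 (0.49 and 0.66, 0.79 and 0.95), RBM10 (0.6 and 0.71) and SF3B2 (0.46 and 0.57), and higher in SRSF6 (0.69 and 0.55) and UPF1 (0.92 and 0.78), the helicase of nonsense-mediated decay.

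DNA repair and cell cycle genes had more. Of 62 events in 29 measured genes of a list of 51, 9 were higher and 12 lower (33.9%). Of all 8152 events with 2 junctions and at least 100 reads, 738 were higher and 904 lower (20.1%). The median absolute difference was 0.06 beside 0.03. BRCA2, a mediator of homologous recombination (chr13:32890660-32890664, plus strand, 4 bases), had PSI 0.64 in S34F with 961 reads and 0.18 in WT with 1459, so the upstream donor went from the minor to the major one. In MRE11A, a nuclease of the double-strand break sensor (chr11:94226850-94226957, minus strand, 107 bases), PSI was 0.5 and 0.11 on 114 and 161 reads. Joined to an acceptor 9 bases away, the same donors of MRE11A had 0.25 and 0.13 on 1634 and 2262 reads, in the same direction and smaller. RAD50, its partner, had 0.56 and 0.67 on 2326 and 3487 reads. RAD52 was lower in 3 pairs (0.63 and 0.89, 0.18 and 0.42, 0.48 and 0.65) with 104 to 122 reads a side, and FANCA was lower in 2 pairs (0.51 and 0.75, 0.72 and 0.83) and higher in 1 (0.81 and 0.69). The checkpoint kinases differed in opposite directions, with 0.73 and 0.93 in CHEK2 and 0.38 and 0.26 in CHEK1. MDM2, the ubiquitin ligase of p53, had 0.18 and 0.07 on 1486 and 2209 reads, and its relative MDM4 had 0.29 and 0.47. The list differed in direction within itself, and its median difference was 0.

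Among cytoskeleton, adhesion and matrix genes 2 of 66 events were higher and 3 lower (7.58%), in 31 measured genes of 47, beside 738 higher and 904 lower of all 8152 events (20.1%). KIF23, a kinesin of the central spindle (chr15:69738430-69738434, plus strand, 4 bases), had 0.17 in S34F and 0.62 in WT on 756 and 1211 reads, while another pair of KIF23 at 4 bases had 0.98 and 0.97. MYO18A (0.83 and 0.97), MYO9B (0.73 and 0.83) and ADD3 (0.16 and 0.06) were also past 0.10. None of the 21 events in 13 measured genes of a list of 19 mitochondrial genes passed 0.10, beside 20.1% of all 8152 events. The list does not hold every such gene, and PTCD3 and FTSJ2 above are not on it. Its largest differences were in ATP5J2 (0.33 and 0.42) and NDUFB11 (0.8 and 0.72).

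Of 4 genes listed for well known alternative 5′ sites, 2 had measured events, 4 in all, and none of these was past 0.10. In BCL2L1 donor choice makes the long or the short form of BCL-X. Its measured pair (189 bases, chr20:30309458-30309647, minus strand) had PSI 0.02 on both sides with 662 and 1115 reads. The 3 LMNA pairs differed by at most 0.02 with 3649 or more reads a side. A further list of 6 genes of interest for splicing had 8 events in 3 genes, of which 1 was past 0.10. STRAP had 3 pairs, all 4 bases apart, with PSI 0.66 in S34F and 0.9 in WT (chr12:16047077-16047081), 0.78 and 0.83, and 0.9 and 0.93. IL32 had 0.96 and 0.91, 0.95 and 0.9, and 0.96 and 0.9 in its 3 pairs, and H2AFY had 1.0 on both sides and 0.99 on both sides in its pairs.

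Expression of the host genes was given per gene for every library. It came from the same RNA-Seq as PSI, so it is not an independent measurement. It was compared between S34F dox+ and WT dox+ with limma-trend on log2(FPKM + 1), on the 15179 genes that averaged 1 FPKM or more. Of all these genes 8 (0.0527%) had a Benjamini-Hochberg adjusted p under 0.05. Before adjustment, p was under 0.05 for 4.01% that were higher and 2.77% that were lower. Of the 24 host genes of the named events none passed either threshold in limma, and the lowest adjusted p was 0.794. Their log2 fold changes ran from -0.34 to 0.25 with a median of 0.03, equal to that of all genes (0.03 after rounding). ESPL1 had 16.6 and 17.5 FPKM with WT and 17.6 and 19.9 with S34F after doxycycline. SEPT10 was at 60.4 and 55.9 against 57.6 and 52.9, so its groups overlapped while its PSI differed by -0.55. BTN2A2 had the highest log2 fold change, 0.25 ± 0.21 (SE, adjusted p = 0.869 by limma), with 6.51 and 8.91 FPKM against 7.76 and 11.0. It moved to 0.02 without S34F dox+ replicate 2, 0.05 without WT dox+ replicate 1, 0.45 without WT dox+ replicate 2 and 0.48 without S34F dox+ replicate 1. APOBEC3F had the lowest, -0.34 ± 0.33 (adjusted p = 0.888 by limma), with 3.58 and 7.81 against 4.42 and 3.64, and its fold change became 0.13 without WT dox+ replicate 2 and -0.81 without WT dox+ replicate 1.

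**Figure D5:**
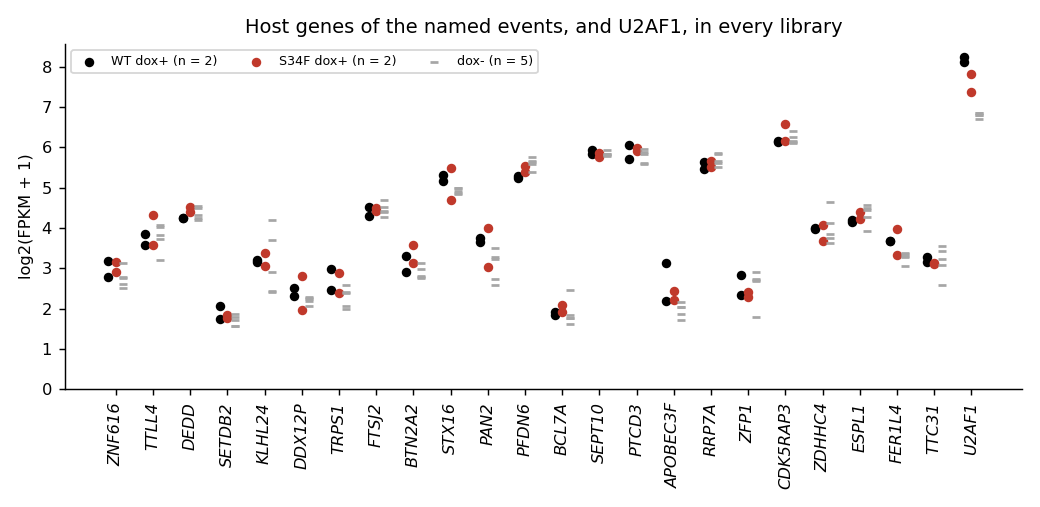
Expression, as log2(FPKM + 1) on the y axis, of 23 of the 24 host genes of the named events and of U2AF1 (x axis) in each library of WT dox+ (black, n = 2), S34F dox+ (red, n = 2) and the 5 libraries without doxycycline (grey lines, n = 5). The 4 dox+ libraries of U2AF1, and of APOBEC3F among the host genes, stand above the 5 without doxycycline, and none of the 24 host genes passed the test between the dox+ groups.

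Total U2AF1, native and transgenic together, was at 278 and 299 FPKM in the induced WT line and at 164 and 223 in the induced S34F line, against 103 to 115 in the 5 libraries without doxycycline. The log2 difference between the dox+ groups was -0.59 ± 0.15 (SE, unadjusted p = 0.00489, adjusted p = 0.531 by limma), with both S34F dox+ libraries below both of WT dox+. Leaving out S34F dox+ replicate 1 gave -0.37, and leaving out replicate 2 of that group gave -0.81. The sides thus differed in the amount of U2AF1 as well as in the S34F share, and the part of either in the PSI differences was not tested. The S34F dox+ replicate 2 library stood apart with 20896 genes at 1 FPKM or more, where the other 8 had 13661 to 17716. The lung adenocarcinoma label was checked on 8 lineage genes. NKX2-1 (49.1 to 67.8 FPKM) and the epithelial genes KRT7, KRT8, KRT18 and EPCAM (407 or more) were expressed in all 9 libraries, NAPSA was at 1.73 to 9.97, and the surfactant genes SFTPB and SFTPC were at most 2.05 and 0.69.

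A list for donor recognition in a wide sense held 41 genes. It had 3 of the U1 snRNP, 16 listed as U1 associated or alternative 5′ site factors and 22 listed for the handover to U6 and U5. Not all of them bind the donor. Of the 41 genes 39 were tested. None passed an adjusted p of 0.05 in limma (lowest 0.619), and before adjustment p was under 0.05 for 1 gene above and 2 below 0. The log2 fold change was below 0 in 31 of the 39, beside 6774 of all 15179 genes, and the median was -0.06. The values ran from -0.41 in SART1, a protein of the tri-snRNP (53.0 and 52.8 FPKM with WT against 42.0 and 37.4 with S34F, adjusted p = 0.764 by limma), to 1.64 in LUC7L2, a U1 associated factor. LUC7L2 had the largest SE named here, with 9.01 and 0.57 FPKM against 17.5 and 7.24 (1.64 ± 0.82 SE, adjusted p = 0.759 by limma). Leaving out 1 of these libraries moved its log2 fold change to between 0.30 (WT dox+ replicate 2) and 2.98 (WT dox+ replicate 1), with 1.06 for S34F dox+ replicate 1. All 3 genes specific to the U1 snRNP were slightly below 0. SNRNP70 was at 115 and 117 FPKM with WT against 89.4 and 133 with S34F, SNRPA at 126 and 103 against 87.9 and 135, and SNRPC at 161 and 166 against 149 and 151. For SNRNP70 and SNRPA the S34F dox+ libraries lay on either side of those of WT dox+. The gene higher at an unadjusted p was PRPF40B, a U1 associated factor, with 9.27 and 11.3 FPKM against 14.9 and 15.9 (log2 0.55 ± 0.18 SE, adjusted p = 0.619 by limma). SNRNP200, the helicase that unwinds U4 from U6, was lower, with 101 and 106 against 79.3 and 88.5 (-0.30 ± 0.10, adjusted p = 0.656 by limma). The groups did not overlap for either of these genes.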

How the data were processed

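RNA-Seq was performed by the authors on total RNA of 9 libraries with a stranded kit. Reads were aligned with STAR 2.3.0, and FPKM and TPM values per gene were computed with RSEM 1.2.29, per the submitters' processing notes. The deposited table holds FPKM and TPM for 57773 genes and no counts, so the depth of the libraries is unknown. For splicing the authors ran MISO on a database of known events and deposited, per event and side, PSI as a fraction (a list of fractions for events with several isoforms) and a count of reads, for 5 event types. The tables also hold the authors' own PSI difference and Bayes factor, which were not used. The side called mutant was taken as S34F dox+ and the other as WT dox+. Across 4705 host genes the log2 ratio of reads had a Spearman rho of 0.594 with the FPKM ratio of the dox+ lines and of 0.17 with that of the dox- lines.

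PSI differences were computed here as S34F minus WT, rounded to 2 decimals, for unique events with at least 10 reads on each side, and events with a list entered with the isoform of the largest absolute difference. Events with 2 junctions (10428) gave distances. Shares have Wilson 95% intervals (scipy 1.17.1), which, like the Newcombe intervals, cover counting error only. Named events were the 12 largest increases and 12 largest decreases among events with 2 junctions and at least 100 reads on each side, 1 per host gene, and the 2 largest differences in each host gene list. The members and lists were chosen with earlier results of these data known. Where an event overlapped several genes (1541 events), a protein-coding host was taken first. Expression was fitted with limma 3.58.1 in R 4.3.3 on log2(FPKM + 1), 5 groups in 1 fit, two-sided, with Benjamini-Hochberg adjustment, and the fit was tested on simulated data. The minimum was a mean of 1 FPKM. The authors' DESeq2 needs counts. Alternatives covered reads, thresholds, hosts, pseudocount, scaling, TPM, the block and each replicate left out. Site sequences and iCLIP data were not analysed here, and some events and genes that the rules select are not reported here.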

Additional observations from a re-analysis of the deposited data

How the results depend on the processing

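More events were lower than higher under each alternative run on reads, threshold, isoforms and host genes, though at 4 bases with no fewer reads in S34F 30 were lower and 36 higher. The counts of 1434 higher and 1693 lower of 11391 events moved by over 1.5 times under 4 alternatives. With the same total they were 2383 and 2881 at a difference of at least 0.05, and 560 and 662 at 0.20. With smaller totals they were 819 and 993 of 8752 with at least 100 reads on each side. They were 870 and 1048 of 6501 with 1 event per host gene, so these counts fell along with the total. Events with 2 junctions (1294 and 1505 of 10428) were also counted under alternatives chosen after seeing the data. They came to 762 and 845 of 2783 with a mean PSI over 0.30 to 0.70, and to 91 and 107 of 2645 with at least 1000 reads.

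With at least 100 reads the share past 0.10 was 17.1% at 1 to 6 bases, 26.5% at 7 to 24, 23.3% at 25 to 99, 20.3% at 100 to under 500, 13.5% at 500 or more, 24% in frame, 18.8% out of frame, and 42.4% and 5.99% at wild-type PSI between 0.10 and 0.90 and from 0.90. With a difference of at least 0.20 these shares were 7.61%, 14%, 12.3%, 12.1%, 8.79%, 12%, 9.77%, 18.8% and 1.95%, and 2.07% at PSI up to 0.10.

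Genes with an adjusted p under 0.05 (3 higher and 5 lower by limma) were 0 higher with a pseudocount of 0.1, 0 higher and 3 lower with no minimum FPKM, 5 higher with quantile normalization and 1 higher with TPM. Without each replicate in turn they ranged from 0 to 20 higher and from 1 to 13 lower, with 20 and 9 without S34F dox+ replicate 1, 8 higher without S34F dox+ replicate 2, 0 and 13 without WT dox+ replicate 1 and 0 and 1 without WT dox+ replicate 2. At an unadjusted p under 0.05, TPM gave 296 higher and 1016 lower in place of 609 and 420, and the median log2 fold change of all genes went from 0.029 to -0.074, that of the donor recognition genes to -0.18 and that of the host genes to -0.08. The host gene median was also below 0 with quantile normalization (-0.03) and without S34F dox+ replicate 2 or WT dox+ replicate 1 (-0.03 each). Without each replicate in turn APOBEC3F (-0.34) ranged from -0.81 to 0.13, below 0 in all but the fit without WT dox+ replicate 2. No host or recognition gene passed an adjusted p of 0.05 in any of the 12 fits, and the cause of these moves was not tested.

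With the replicate number as a block (replicate block), 0 genes were higher and 5 lower. Deviations of same-numbered dox+ libraries correlated at 0.0374, so the numbers were not taken to pair the libraries. Read numbers of a gene and a single PSI per side limit what the events can show.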

Other observations

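Of the 963 events with a list of isoforms, 328 (34.1%) had an isoform that differed by at least 0.10, and 170 of 600 (28.3%) with at least 100 reads on each side. Taking the largest of several isoforms raises this share beside that of events with 2 junctions. Their shares followed the listed order of the junctions, since the largest share on the wild-type side lay at the only donor also used in another table in 84 of 95 events with 3 junctions. The first share was thus read as that of the nearest donor. The single PSI of events with 2 junctions was read as the share of the second listed, farther donor. These readings run in opposite order, and each was deduced from such counts only. CLTA, clathrin light chain A, had 3 donors spaced by 4 bases (chr9:36204176-36204184, plus strand). The donor nearest the acceptor had a share of 0.16 in S34F and 0.69 in WT, the middle donor 0.68 and 0.27, and the farthest 0.16 and 0.04, on 1480 and 2533 reads. In EXOG, a mitochondrial nuclease, the nearest donor had 0.67 and 0.1 and the middle donor 0.19 and 0.76, on 109 and 209 reads. In ZNF615 the middle donor had 0.34 and 0.86, on 127 and 242 reads. HYOU1, a chaperone of the endoplasmic reticulum, had 0.24 and 0.79 at the nearest donor and 0.69 and 0.17 at the farthest. Its reads were 728 in S34F and 3657 in WT, a gap far wider than the median ratio of 0.684. These 4 events were picked after their values were seen.

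By host type, 26.1% of 10094 events in protein-coding genes were past 0.10, 44.7% of 152 in pseudogenes, 47.5% of 80 in lincRNA genes and 55% of 40 in antisense genes. Pseudogenes and antisense genes can share reads with other genes. Reads also differed, with S34F medians of 407.5 in protein-coding, 81 in pseudogene, 28 in lincRNA and 35 in antisense hosts. The part of reads in these shares was not tested. Within protein-coding hosts the share was 50.8% with 10 to 99 reads and 7.31% with 1000 or more.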
